A study of Canis lupus with 23 samples.

Results

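The genes described are 38 that code for the junctions between epithelial cells and for the proteins that keep such cells polarized: adherens junction and adhesion molecules, tight junction proteins, desmosomal cadherins and their plaque proteins, surface proteases with their inhibitors, and a group of polarity, traffic, transcription and mucin genes. They were chosen by gene symbol, with earlier results of these data known. Of the 38, 36 have at least 1 probeset in the platform annotation, out of 15115 genes with a symbol. DSC3 and LAD1 are not named there and were not analysed here. The 36 genes are read by 61 probesets, and 18 of them by more than 1.

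Expression was measured in 23 spontaneous tumors of pet dogs, 1 array per tumor and dog, on the Affymetrix Canine Genome 2.0 array. The labels give 7 lymphomas, 5 melanomas, 3 TCC (transitional cell carcinoma of the bladder), 2 tumors called STS (soft tissue sarcoma) and 2 called sarcoma, and 1 each of HCC (hepatocellular carcinoma), nasal tumor, hemangiosarcoma and histiocytic sarcoma. The STS and sarcoma labels were joined as 1 type, which leaves 8 types. All dogs were treatment-naive when biopsied, there is no normal tissue among the samples, and the sample labels give neither age nor breed, although the study recruited Scottish terriers for TCC and golden retrievers for lymphoma. Breed, biopsy method and tumor type can therefore not be told apart for TCC, which the study biopsied by cystoscope or under ultrasound. The golden retriever cohort held 5 profiled lymphomas, fewer than the 7 here, and the labels do not say which. Breed can therefore not be set apart in the lymphomas either. Tumors of the types with more than 1 sample are numbered from 0 as in their labels, and the numbers carry no order.

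In a simple or stratified epithelium, neighbouring cells are held together by E-cadherin at the adherens junction and by desmosomes, in which desmosomal cadherins are tied through plakoglobin, plakophilins and desmoplakin to the keratin filaments. Above these lies the tight junction, a belt of claudins and occludin anchored to zonula occludens proteins, which seals the space between the cells and separates the apical from the basolateral membrane. Lymphoid, melanocytic and mesenchymal cells form other kinds of contact, and loss of E-cadherin is a textbook feature of carcinoma cells that take on a mesenchymal form.

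Marker genes were set beside the labels of the TCC, the HCC, the nasal tumor and the histiocytic sarcoma. All 3 TCC expressed uroplakins, and the mean of 5 urothelial genes was 9.69 to 10.72 in TCC against 4.62 to 5.88 in the other tumors, on the scale used throughout, log2(signal + 16), where a probeset with no signal has the value 4. The hepatocyte genes averaged 13.12 in the HCC. The label of the nasal tumor does not name its cell type. Its keratin genes KRT8 and KRT18 were 13.09 and 13.15, within the range of the TCC (12.18 to 13.09 and 12.87 to 13.90). It had the highest mean of the airway genes, 8.53. Of these, SCGB1A1, LTF, BPIFA1 and MUC5B were highest there. PIGR, AGR2, FOXJ1 (5.65), TEKT1 (4.5) and DNAH5 (5.95) were higher in other tumors. The other simple epithelium keratins, KRT7 (10.72), KRT20 (4.16) and KRT23 (6.75), lay below the lowest TCC (11.94, 4.73 and 7.16). It is counted here with the carcinomas, among which the study lists a nasal carcinoma. The histiocytic sarcoma had a mean of 10.17 for skeletal muscle genes against at most 7.25 elsewhere. It also had the highest mean of the macrophage genes, 11.89, with 11.62 in the hemangiosarcoma. Values are levels within a gene: probesets differ in their brightness, so the level of 1 gene is not set against that of another.

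The junction genes stood highest in the 3 TCC. Averaged over the 36 genes, the level was 9.0, 8.75 and 9.06 in TCC 0, 1 and 2, 8.14 in the nasal tumor and 7.84 in the HCC. Among the other 18 tumors, melanoma 0 reached 7.61 and the remaining 17 lay between 5.67 and 6.65. Against the unweighted mean of lymphoma, melanoma and sarcoma, 22 of the 36 genes were higher in TCC (limma, adjusted p under 0.05 and a log2 difference of at least 1), where 4.71% of all 15115 genes were called higher, and 0 were lower, where 2.62% of all genes were; 29 of the 36 had an unadjusted p under 0.05. The median difference over the 36 genes was 2.35 on the log2 scale, and it was -0.10 over all genes. In 15 of the 36 genes every TCC lay above all 16 lymphomas, melanomas and sarcomas, which held for 3.04% of all genes, and in 0 did every TCC lie below them, which held for 1.08%. These are bulk biopsies, so fewer epithelial cells and less RNA per cell cannot be told apart, nor can tumor cells be told from normal urothelium taken with them.

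**Figure D1:**
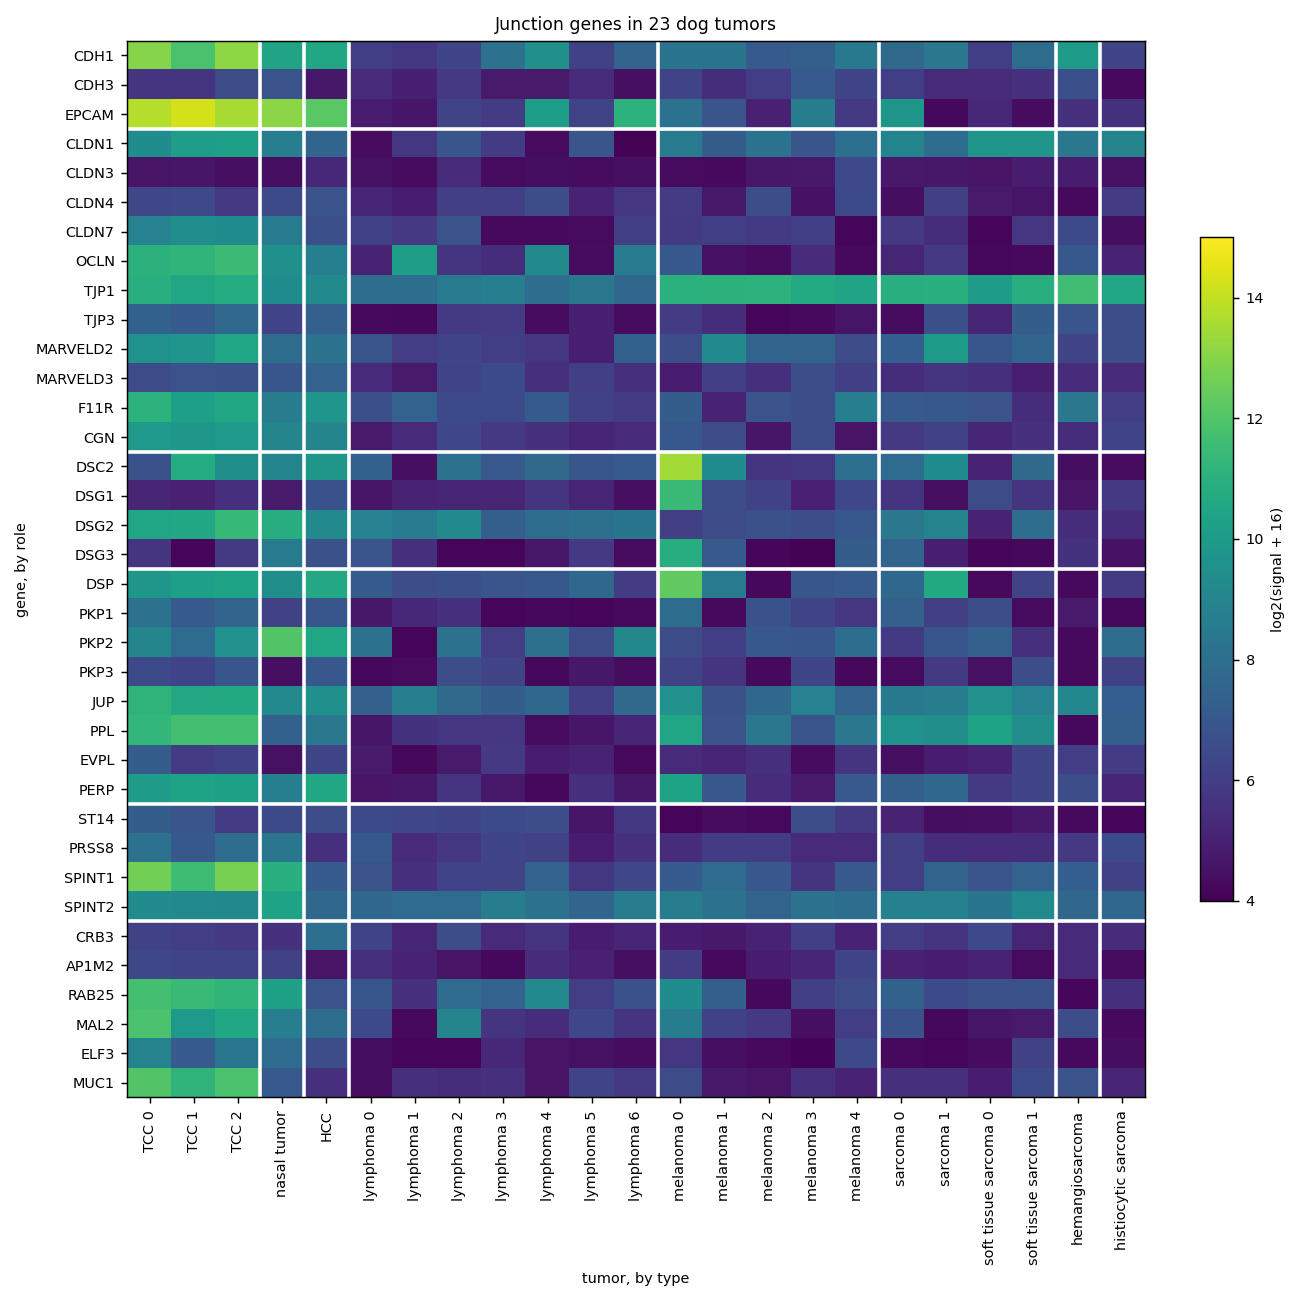
Level of the 36 measured junction genes (rows, grouped by role) in the 23 tumors (columns, grouped by type) as log2(signal + 16), from 4 (dark) to 15 (yellow). The 3 TCC, and to a lesser degree the nasal tumor and the HCC, form the brightest columns on the left; colours compare tumors within a row, not genes with each other.

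Called against each type apart, 24 genes were higher in TCC than in lymphoma (6.88% of all genes), 19 than in melanoma (3.69%) and 17 than in sarcoma (3.23%). The 15 genes higher than in all 3, against 1.98% of all genes, were CDH1, EPCAM, CLDN7, OCLN, F11R, CGN, DSG2, JUP, PERP, PRSS8, SPINT1, RAB25, MAL2, ELF3 and MUC1. By role, the genes higher in TCC were 2 of 3 adhesion genes, 7 of 11 tight junction genes, 1 of 4 desmosomal cadherins, 5 of 8 plaque and junction-associated genes, 2 of 4 proteases and inhibitors, and 5 of 6 polarity, traffic, transcription and mucin genes. Differences are of log2(signal + 16), which understates the change of weakly expressed genes, and the number of arrays limits the precision.

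**Figure D2:**
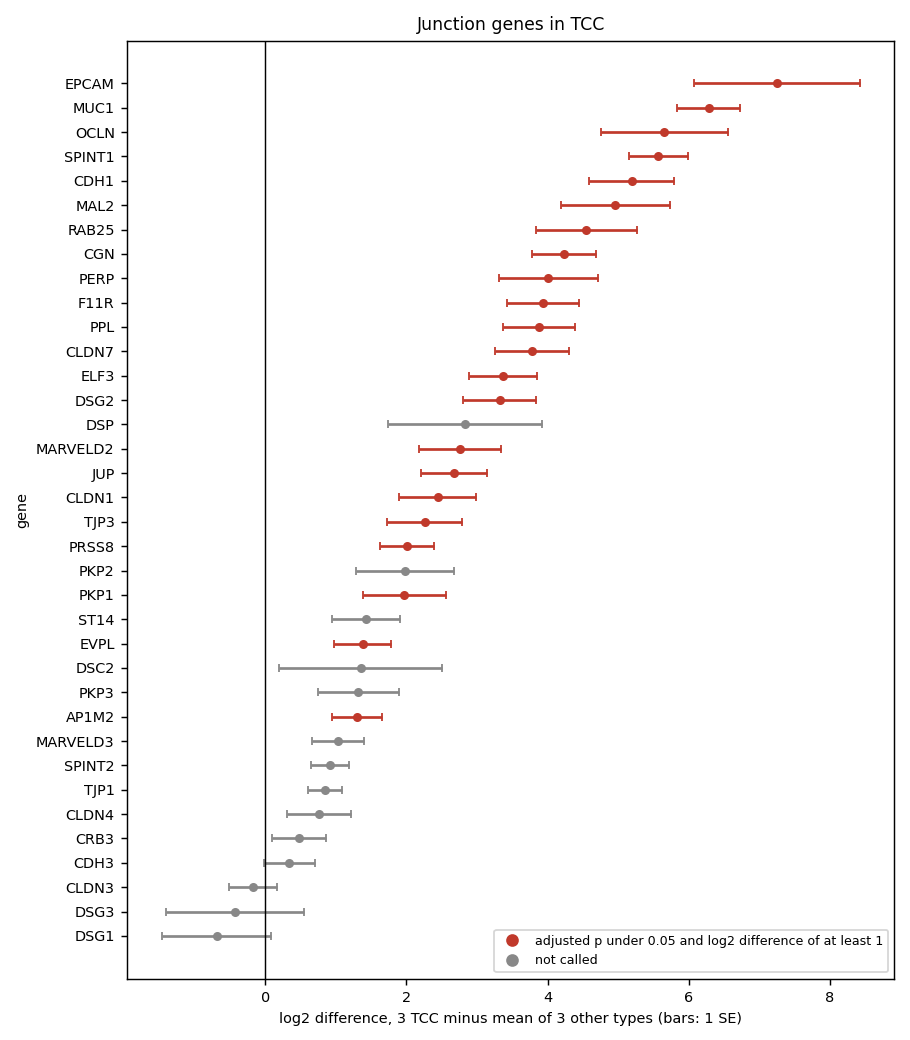
Difference in log2(signal + 16) between the 3 TCC and the unweighted mean of lymphoma, melanoma and sarcoma for each of the 36 genes, with bars of 1 SE from the fit; red points are the 22 called genes. EPCAM (7.25) and MUC1 (6.28) lie farthest to the right, and 33 of the 36 points lie above 0.

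CDH1 encodes E-cadherin, the calcium-dependent adhesion molecule of the adherens junction. Its level was 13.02, 11.83 and 13.14 in the TCC and 10.42 and 10.54 in the nasal tumor and the HCC. Lymphomas ranged from 5.79 to 9.52 (median 6.30), the 5 melanomas measured 8.25, 8.22, 7.12, 7.31 and 8.44, and the sarcomas 7.80, 8.35, 6.02 and 7.87 (sarcomas 0 and 1, then soft tissue sarcomas 0 and 1, an order kept in all later lists). No lymphoma, melanoma or sarcoma reached the lowest TCC, and the difference was 5.19 (SE 0.60, adjusted p = 6.06e-06), a 36.4-fold higher mean. Outside the carcinomas the highest values were those of the hemangiosarcoma, 9.99, and of lymphoma 4, 9.52.

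EPCAM, an adhesion molecule of simple epithelia that is not a cadherin, had the largest TCC difference of the 36, 7.25 (SE 1.17, adjusted p = 0.00032). It measured 13.76, 14.27 and 13.58 in TCC, 13.08 in the nasal tumor and 12.17 in the HCC, which are the 5 highest values of all 23 tumors. The 7 lymphomas measured 4.90, 4.65, 6.24, 5.97, 10.12, 6.24 and 11.11, the melanomas 8.11, 6.88, 5.0, 8.63 and 5.89 and the sarcomas 9.82, 4.25, 5.22 and 4.35. Lymphomas 4 and 6 and sarcoma 0 thus stood above the other tumors of their types, though below every carcinoma. The simple epithelium keratins averaged 5.78, 6.35 and 7.11 in these 3 tumors, against 10.24 to 10.80 in TCC, and KRT8 was 4.16, 4.61 and 7.55. KRT18 of the same list was 8.92, 9.06 and 8.37, the 3 highest values among the 16 lymphomas, melanomas and sarcomas, against 5.74 to 7.06 in the other 5 lymphomas. The part of epithelial cells in these EPCAM values was not tested. CDH3, which encodes P-cadherin of basal epithelial cells, was at 5.66, 5.67 and 6.56 in TCC and was not called, with a difference of 0.34 (SE 0.36, adjusted p = 0.661). Its 3 probesets disagreed, with TCC differences of 2.53, 0.51 and -2.01. The first was at 8.23, 7.54 and 8.58 in TCC against at most 6.92 in the other 16 tumors, and the last was highest in melanomas 2, 3 and 4, at 9.42, 9.27 and 9.81, and at most 4.36 in TCC.

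Occludin, from OCLN, is a membrane protein of the tight junction strands. Its TCC values were 11.08, 11.21 and 11.56, with 9.53 in the nasal tumor and 8.75 in the HCC. In lymphomas 0 to 6 the values were 5.07, 10.14, 5.65, 5.46, 9.23, 4.35 and 8.48, in the melanomas 7.05, 4.52, 4.38, 5.31 and 4.29 and in the sarcomas 5.13, 5.84, 4.24 and 4.28. TCC exceeded all of these, by 5.65 (SE 0.90, adjusted p = 0.000279), but lymphomas 1, 4 and 6 stood well apart from the other 4 lymphomas, and lymphomas 4 and 6 are also those with high EPCAM. In the 3 lymphomas the simple epithelium keratins averaged 5.50, 5.78 and 6.35, within the 4.94 to 6.62 of all 7. KRT18 of that list was highest in the same 3, at 7.06, 8.92 and 9.06, although lymphoma 1 lay only just above the 6.97 of lymphoma 5.

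Claudins form the paracellular seal, and their family members behaved differently. CLDN7 was 8.87, 9.40 and 9.37 in TCC and 8.56 in the nasal tumor; lymphomas ranged from 4.26 to 6.82 (median 5.81), melanomas measured 5.87, 6.02, 5.88, 6.06 and 4.17 and sarcomas 5.84, 5.46, 4.19 and 5.75. The groups did not overlap, and the difference was 3.78 (SE 0.53, adjusted p = 6.44e-05). The HCC, at 6.69, lay below lymphoma 2. CLDN1 was also higher in TCC, by 2.44 (SE 0.55, adjusted p = 0.00681), yet it was not restricted to epithelial tumors. TCC measured 9.36, 10.12 and 10.19 and the sarcomas 8.97, 7.94, 9.74 and 9.73, so the groups overlapped, the melanomas measured 8.53, 7.23, 8.20, 6.88 and 8.0, and lymphomas ranged from 4.07 to 6.94 (median 5.80). Against sarcoma alone its TCC difference was 0.80 (adjusted p = 0.585) and against melanoma 2.12 (adjusted p = 0.0517). CLDN4 ranged over 4.42 to 6.65 in the 16 lymphomas, melanomas and sarcomas and at 6.35, 6.42 and 5.82 in TCC, with a difference of 0.76 (SE 0.46, adjusted p = 0.402). CLDN3 was near the lowest readable level in most tumors, TCC included (4.57, 4.65 and 4.45), and its highest values were 6.44 in melanoma 4 and 5.35 in lymphoma 2. Each of these 4 claudins is read by 1 probeset.

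Of the proteins under the tight junction membrane, CGN (cingulin, which links the junction to actomyosin) had the widest gap between TCC and the 16 others, 2.76, of the tight junction genes. It was 9.91, 9.81 and 9.97 in TCC, 9.07 in the nasal tumor and 9.0 in the HCC, and no higher than 7.05, in melanoma 0, among the lymphomas (4.80 to 6.36 (median 5.34)), melanomas (7.05, 6.50, 4.65, 6.58 and 4.59) and sarcomas (5.84, 6.11, 5.14 and 5.55). The difference was 4.23 (SE 0.45, adjusted p = 2.06e-06). F11R, which encodes the junctional adhesion molecule JAM-A, was 11.11, 10.23 and 10.56 in TCC and 5.06 to 8.72 in the 16 others, a difference of 3.93 (SE 0.51, adjusted p = 2.33e-05). Both genes are read by 2 probesets that were each called.

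MARVELD2 (tricellulin, found where 3 cells meet) was higher in TCC by 2.76 (SE 0.58, adjusted p = 0.00404), with 9.59, 9.78 and 10.53 in TCC. Sarcoma 1 at 10.01 and melanoma 1 at 9.31 lay within or just under that range, while the other sarcomas measured 7.30, 6.93 and 7.57. MARVELD3, of the same family, did not pass, at 1.03 (SE 0.37, adjusted p = 0.102). It was 6.53, 6.80 and 6.73 in TCC and highest in the HCC, 7.44. TJP3 (ZO-3) was 7.43, 7.17 and 7.78 in TCC and up to 7.26 in the 16 lymphomas, melanomas and sarcomas, a difference of 2.26 (SE 0.53, adjusted p = 0.00893). The HCC, at 7.36, lay within the range of TCC.

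TJP1, which encodes the scaffold ZO-1, had another pattern from the epithelial genes. It was 10.93, 10.53 and 10.81 in TCC, 11.02, 11.07, 11.13, 10.71 and 10.43 in the melanomas and 10.91, 11, 10.09 and 10.90 in the sarcomas, all of which overlap, and 7.65 to 8.69 (median 7.98) in the lymphomas, which do not overlap with any of the 3. The TCC difference from the mean of the 3 types was 0.84 (SE 0.24, adjusted p = 0.0304), under the log2 difference of 1 needed for a call. TCC exceeded lymphoma by 2.59 (adjusted p = 6.8e-07), and differed from melanoma by -0.11 and from sarcoma by 0.03. The highest TJP1 of the 23 tumors was in the hemangiosarcoma, 11.61, and the nasal tumor and the HCC, at 9.37 and 9.24, were the lowest outside the lymphomas.

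**Figure D3:**
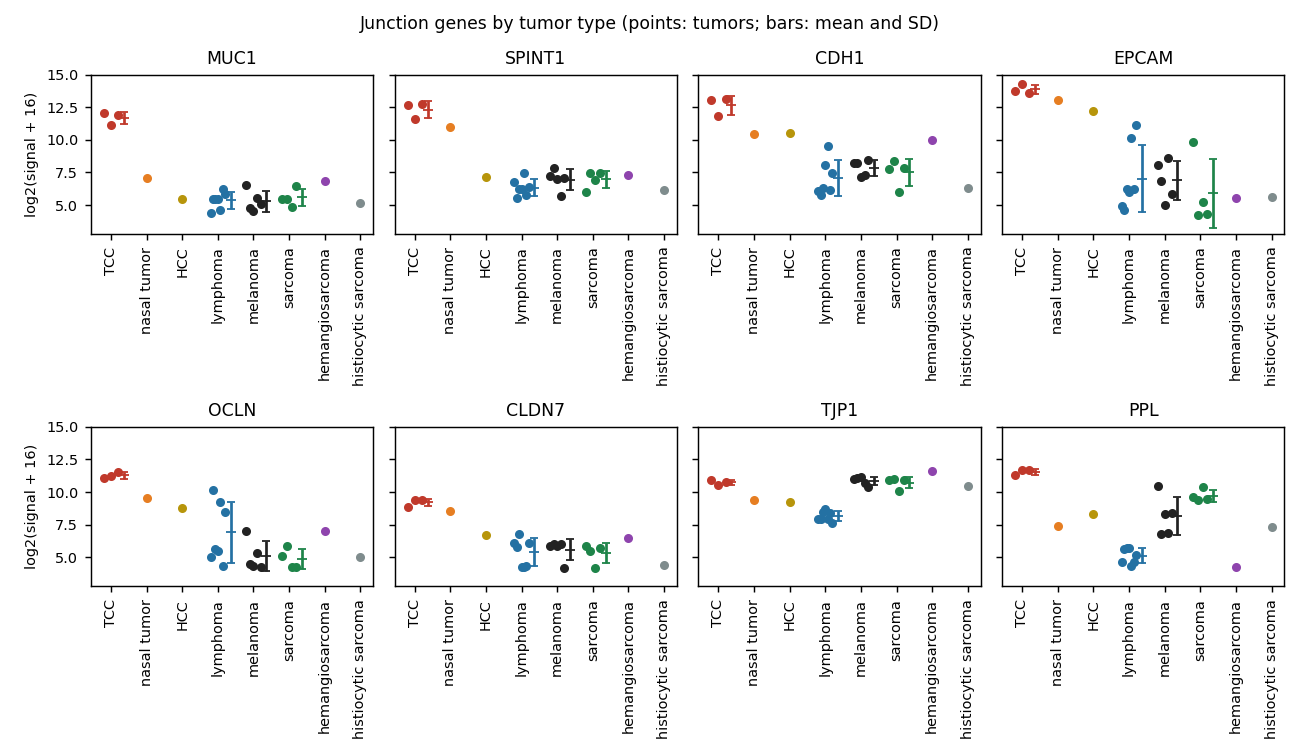
Level of 8 junction genes, as log2(signal + 16), in each tumor (points) by type; bars beside the points give the mean and 1 SD of types with at least 3 tumors. MUC1, SPINT1, CDH1, EPCAM, OCLN and CLDN7 are highest in TCC, TJP1 is lowest in lymphomas, and PPL is also high in sarcomas.

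Desmosomal cadherins divided into 1 gene that followed TCC and 3 that did not. DSG2, the desmoglein of simple epithelia, was 10.53, 10.55 and 11.37 in TCC and 10.87 in the nasal tumor, 7.31 to 9.23 (median 8.29) in lymphomas, 6.10, 6.55, 6.71, 6.66 and 7.04 in melanomas and 8.35, 8.91, 5.10 and 7.93 in sarcomas. TCC lay above all 16, by 3.32 (SE 0.52, adjusted p = 0.000206), and each of its 4 probesets was called. DSC2, a desmocollin of simple and stratified epithelia, varied within TCC from 6.79 in TCC 0 to 10.75 in TCC 1, the widest SD of the 36 genes there (2.02), and was not called, at 1.35 (SE 1.16, adjusted p = 0.585). That difference was 2.46 without TCC 0 and 0.48 without TCC 1. DSG1 and DSG3, the desmogleins of stratified squamous epithelium, were low in TCC, at 5.19, 5.0 and 5.48 and 5.65, 4.17 and 5.89, with differences of -0.69 (SE 0.77, adjusted p = 0.695) and -0.43 (SE 0.98, adjusted p = 0.865). The nasal tumor had 8.50 for DSG3, the second highest of the 23.

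The highest values of DSC2, DSG1, DSG3 and of DSP, desmoplakin, were all in melanoma 0. In that tumor DSC2 was 13.47, DSG1 11.41, DSG3 10.86 and DSP 12.31. Among the other 4 melanomas the highest values were 9.33, 6.64, 7.25 and 8.48. Melanoma 0 exceeded all other melanomas by at least 2 on the log2 scale in 8 of the 36 genes, the 4 above and PPL, PERP, RAB25 and MAL2, a size reached by 0.523% of all genes, and none of the other melanomas did so in any of the 36. The same tumor held the highest value of 10 of the 14 squamous epithelium genes among the 16 lymphomas, melanomas and sarcomas: IVL was 14.67, KRTDAP 14.24 and KRT16 11.22, and the list averaged 9.62 against 7.16, 5.69, 5.54 and 6.66 in melanomas 1 to 4. DSC1, a further squamous desmosomal cadherin on that list, was 4.56. Like DSC1, KRT1 (4.31), KRT10 (7.79) and KRT17 (7.99) were higher in other tumors of the 16. How many of all genes were highest in melanoma 0 was not counted. Its melanocyte genes averaged 10.29, within the 9.88 to 10.29 of all 5 melanomas, and its beta-actin 3'/5' log2 ratio was the highest of the 23 arrays, 9.05 against 4.87 for the lowest. The GAPDH ratio of melanoma 0 was 7.24, below soft tissue sarcoma 1 (9.74), melanoma 1 (8.57) and lymphoma 2 (8.06). The part of squamous epithelium and of RNA quality in these values was not tested. Melanoma 0 was singled out after its values were seen.

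**Figure D4:**
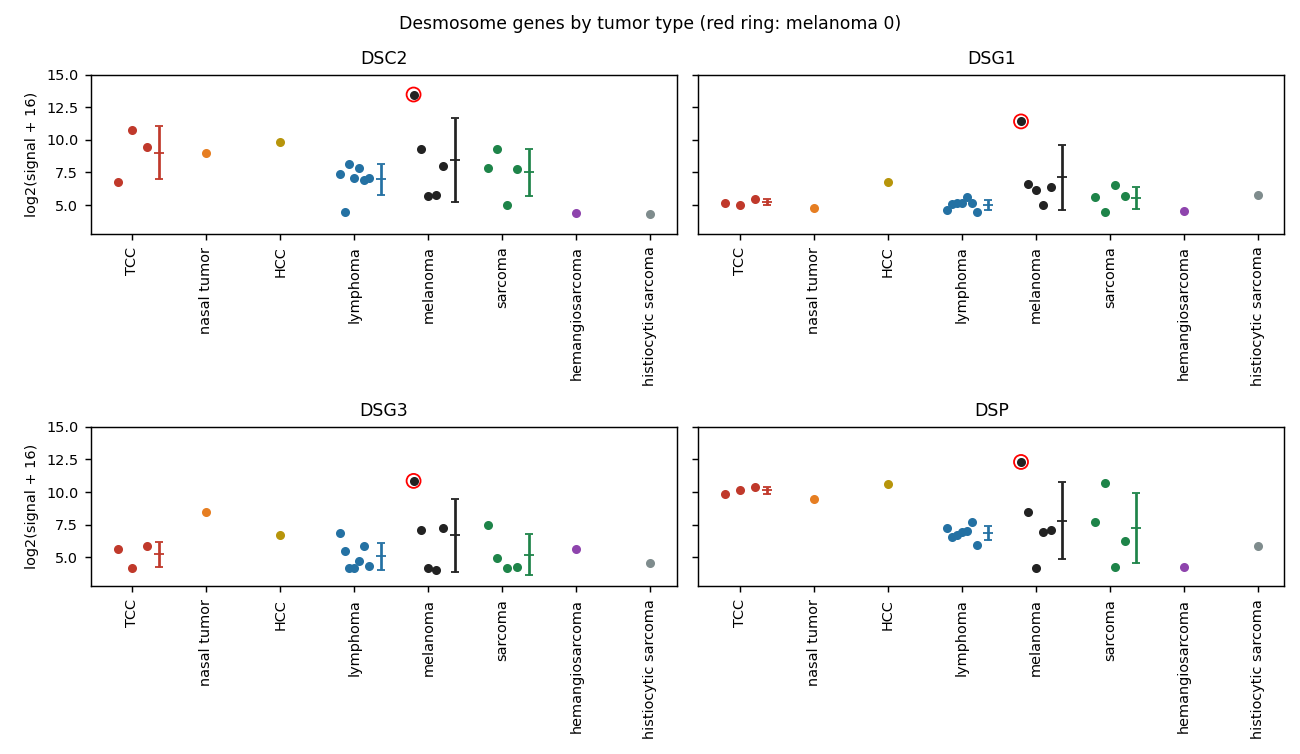
Level of 4 desmosome genes, as log2(signal + 16), in each tumor (points) by type; bars give the mean and 1 SD of types with at least 3 tumors, and the red ring marks melanoma 0. Melanoma 0 holds the highest value of each gene, while DSP alone is also high in all 3 TCC.

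Desmoplakin ties the desmosomal plaque to keratin. DSP was 9.84, 10.19 and 10.38 in TCC, 9.47 in the nasal tumor and 10.62 in the HCC; lymphomas ranged from 5.95 to 7.69 (median 6.92), melanomas measured 12.31, 8.48, 4.22, 6.94 and 7.13 and sarcomas 7.73, 10.69, 4.29 and 6.24. Melanoma 0 and sarcoma 1, at 10.69, lay above every TCC, and the difference of 2.83 (SE 1.09, adjusted p = 0.128) was not called. It was called, at 3.21, with melanoma 0 left out, and also with sarcoma 1 left out.

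JUP, plakoglobin, which joins both adherens junctions and desmosomes, was 11.17, 10.64 and 10.68 in TCC against 6.08 to 9.57 in the 16 others, a difference of 2.67 (SE 0.47, adjusted p = 0.000753), and its 3 probesets were each called. Plakophilins bind desmosomal cadherins in the plaque. PKP1 was 8.13, 7.11 and 7.60 in TCC and higher by 1.97 (SE 0.59, adjusted p = 0.0407), but melanoma 0 (7.87) and sarcoma 0 (7.37) overlapped with TCC, and the call was lost in 9 of the 19 fits that left out 1 tumor. PKP2 was 9.05, 7.83 and 9.55 in TCC and 9.12 in lymphoma 6, and was not called, at 1.98 (SE 0.70, adjusted p = 0.0959). PKP3 was 6.46, 6.23 and 6.93 in TCC and up to 6.64 in the 16 others, with a difference of 1.32 (SE 0.58, adjusted p = 0.199).

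PPL encodes periplakin, a cytolinker of the plaque and the cornified envelope. It was 11.29, 11.67 and 11.69 in TCC, 9.62, 9.42, 10.40 and 9.44 in the sarcomas, 10.45, 6.82, 8.36, 6.85 and 8.40 in the melanomas and 4.38 to 5.73 (median 5.17) in the lymphomas. TCC lay above all 16 and by 3.88 (SE 0.51, adjusted p = 2.86e-05) above the mean of the 3 types, but the sarcomas stood next, and the TCC difference from sarcoma alone was 1.83 (adjusted p = 0.0865). The nasal tumor, 7.43, and the HCC, 8.34, were below every sarcoma, and the hemangiosarcoma was at 4.25. EVPL, envoplakin, the partner of periplakin, was 7.25, 5.94 and 6.15 in TCC, with a difference of 1.38 (SE 0.40, adjusted p = 0.0355) that 1 of its 2 probesets carried (2.25 against 0.51). PERP, a tetraspan protein of the desmosome, was 10.04, 10.37 and 10.26 in TCC, 10.57 in the HCC and 10.36 in melanoma 0, against at most 7.73 in the other lymphomas, melanomas and sarcomas; its TCC difference was 4.01 (SE 0.70, adjusted p = 0.000706).

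The membrane serine proteases matriptase (ST14) and prostasin (PRSS8) are held in check on epithelial surfaces by the Kunitz inhibitors SPINT1 and SPINT2. SPINT1 separated TCC from the 16 others by the widest gap after MUC1. It was 12.64, 11.59 and 12.73 in TCC and 10.98 in the nasal tumor, 5.51 to 7.45 (median 6.26) in lymphomas, 7.20, 7.84, 6.99, 5.68 and 7.08 in melanomas and 6.04, 7.49, 6.90 and 7.46 in sarcomas, a difference of 5.57 (SE 0.42, adjusted p = 2.11e-08) and a 47.4-fold higher mean. The HCC, at 7.14, lay within the range of the tumors that are not carcinomas. PRSS8 was 8.09, 7.02 and 7.95 in TCC and highest in the nasal tumor, 8.30. Its difference was 2.01 (SE 0.38, adjusted p = 0.00165), and the lowest TCC lay only 0.01 above lymphoma 0. ST14 was 7.26, 6.90 and 5.97 in TCC, overlapped with the lymphomas (4.66 to 6.64 (median 6.34)) and was not called, at 1.43 (SE 0.48, adjusted p = 0.0754); only its difference from sarcoma, 2.04 (adjusted p = 0.0399), passed.

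SPINT2 missed the call by its size, at 0.92 (SE 0.27, adjusted p = 0.0393). Its 2 probesets differed: the one with signal on every array was 14.04 or higher in the 3 TCC and at most 12.33 in the 16 others, a difference of 2.61 (adjusted p = 5.44e-06), and the other was near the lowest readable level in TCC and gave -0.76. As the mean of both, SPINT2 was 9.30, 9.24 and 9.15 in TCC and 10.37 in the nasal tumor, the highest of the 23.

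MUC1, the transmembrane mucin of the apical surface, had the smallest p and the widest gap of the 36 genes. TCC measured 12.02, 11.17 and 11.89, lymphomas 4.39 to 6.23 (median 5.47), melanomas 6.56, 4.77, 4.56, 5.51 and 5.08 and sarcomas 5.50, 5.48, 4.89 and 6.48, so that the lowest TCC stood 4.61 above the highest of the 16. The difference was 6.28 (SE 0.44, adjusted p = 7.81e-09), a 77.5-fold higher mean. MUC1 did not follow the epithelial tumors as a whole: it was 7.07 in the nasal tumor and 5.47 in the HCC, the latter within the range of lymphomas.

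RAB25, a small GTPase of apical recycling, was 11.71, 11.44 and 11.18 in TCC and 10.28 in the nasal tumor. The next highest values were 9.36 in melanoma 0 and 9.28 in lymphoma 4, and the difference was 4.55 (SE 0.71, adjusted p = 0.000211). MAL2, a proteolipid of transcytosis to the apical membrane, was 11.85, 9.92 and 10.56 in TCC, with 9.02 in lymphoma 2, 8.69 in the nasal tumor and 8.65 in melanoma 0 as the next highest and a difference of 4.96 (SE 0.77, adjusted p = 0.000208). ELF3, an epithelial ETS factor, was 8.90, 7.14 and 8.31 in TCC against 4.11 to 6.43 in the 16 others, a difference of 3.37 (SE 0.48, adjusted p = 7.56e-05). AP1M2, the epithelial subunit of the AP-1 clathrin adaptor, was 6.38, 6.31 and 6.23 in TCC and differed by 1.30 (SE 0.36, adjusted p = 0.0281); 1 of its 2 probesets gave 3.04 and the other -0.43. CRB3, the apical determinant of the Crumbs complex, was not called, at 0.48 (SE 0.38, adjusted p = 0.539). Its 3 probesets gave 1.84, -0.31 and -0.08, and as their mean CRB3 was 6.15, 6.01 and 5.82 in TCC and highest in the HCC, 8.02.

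Among lymphoma, melanoma and sarcoma, fewer of the 36 genes were called than for TCC. Melanoma exceeded lymphoma in 5 of the 36 genes, where 5.86% of all genes were called higher, and was below it in 1, where 3.82% of all genes were. The 5 were TJP1, by 2.71 (SE 0.22, adjusted p = 1.18e-07), PPL, by 3.04 (SE 0.47, adjusted p = 0.000196), CLDN1, by 2.28 (SE 0.51, adjusted p = 0.00498), PERP, by 2.04 (SE 0.65, adjusted p = 0.0442), and CDH3, by 1.13 (SE 0.33, adjusted p = 0.0276); the 1 lower gene was DSG2, at -1.69 (SE 0.48, adjusted p = 0.0235). In DSG2 the melanomas (6.10 to 7.04) lay wholly below the lymphomas (7.31 to 9.23), a separation that was not counted over all genes. With melanoma 0 left out 3 of the 6 calls were left, those of TJP1, PPL and CLDN1, and the PERP difference was 1.18. The PERP call was lost in 11 of the 19 fits that left out 1 tumor, the CDH3 call in 4 and the DSG2 call in 1.

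Sarcoma exceeded lymphoma in 4 of the 36 genes, where 6.85% of all genes were called higher, and was below it in 0, where 4.1% were; 10 of the 36 had an unadjusted p under 0.05. The 4 were PPL, by 4.59 (SE 0.51, adjusted p = 6.51e-06), CLDN1, by 3.61 (SE 0.55, adjusted p = 0.000169), TJP1, by 2.56 (SE 0.23, adjusted p = 1.25e-06), and MARVELD2, by 1.77 (SE 0.57, adjusted p = 0.0449). In PPL, CLDN1 and TJP1 the sarcomas did not overlap with the lymphomas. The groups did not overlap in PERP either, which was not called, at 1.94 (SE 0.70, adjusted p = 0.0707). Separations of this kind were not counted over all genes. The MARVELD2 call was lost in 12 of the 19 fits that left out 1 tumor, and its difference was 1.09 without sarcoma 1. Between melanoma and sarcoma 0 of the 36 genes were called by limma, where 0.609% of all genes were called higher and 0.569% lower; 3 had an unadjusted p under 0.05, PPL at -1.54 (SE 0.54, adjusted p = 0.213), CLDN1 at -1.32 (SE 0.58, adjusted p = 0.372) and SPINT2 at -0.73 (SE 0.29, adjusted p = 0.295). Beside the higher PPL, CLDN1 and TJP1, the mean of 10 fibroblast and matrix genes was 11.97 to 13.49 in sarcomas and 10.35 to 12.44 in melanomas against 8.13 to 9.49 in lymphomas. Its part in these differences was not tested.

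The nasal tumor and the HCC, 1 tumor each and therefore without a test, carried different parts of the list. Relative to the mean of lymphoma, melanoma and sarcoma, 16 of the 36 genes were at least 2 higher on the log2 scale in the nasal tumor, a size reached by 2.77% of all genes, and 12 in the HCC, where 6.19% of all genes reached it. Both exceeded all 18 tumors that are not carcinomas in 13 of the 36 genes, which held for 6.72% of all genes in the nasal tumor and 13.1% in the HCC. The 7 genes CDH1, EPCAM, MARVELD3, CGN, DSG2, PKP2 and ELF3 belong to both sets, although for DSG2 the HCC, at 9.24, lay only just above lymphoma 2, at 9.23. The HCC set also held CLDN4, TJP3, F11R, PKP3, PERP and CRB3, and that of the nasal tumor CLDN7, PRSS8, SPINT1, SPINT2, RAB25 and MUC1.

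Set against the mean of the 3 TCC, the nasal tumor was at least 2 lower in 6 genes, where 2.61% of all genes were, and at least 2 higher in 2, where 3.28% were. The lower genes were MUC1 (-4.62), PPL (-4.12), CDH1 (-2.25), MAL2 (-2.09), PKP3 (-2.08) and MARVELD2 (-2.06), and the higher ones DSG3 (3.26) and PKP2 (3.20). PKP2 was 12.02 there, the highest of the 23 tumors. Its DSG3 level stood beside a squamous epithelium mean of 6.29, below the 6.89 to 7.60 of TCC.

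In the HCC, 10 genes were at least 2 below the mean of TCC, where 7.03% of all genes were, and 1 was at least 2 above it, where 6.81% were. The largest deficits were those of MUC1 (-6.22), SPINT1 (-5.19), RAB25 (-4.64), PPL (-3.21) and MAL2 (-2.87), followed by OCLN (-2.53), CLDN7 (-2.52), CLDN1 (-2.32), PRSS8 (-2.15) and CDH1 (-2.12). CRB3 was the gene above TCC, by 2.03. In MUC1, SPINT1, RAB25, AP1M2 and SPINT2 the HCC lay within 1 of the mean of the 3 types that are not carcinomas (0.05, 0.38, -0.08, -0.43 and -0.64), whereas EPCAM (5.55), PERP (4.36), PKP2 (3.67), CGN (3.33), DSP (3.32), OCLN (3.12), CDH1 (3.06) and F11R (3.05) stood at least 3 above it. CDH3, CLDN1, CLDN3, TJP1, MARVELD2, DSG1, PPL and PRSS8 also lay within 1 of that mean.

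**Figure D5:**
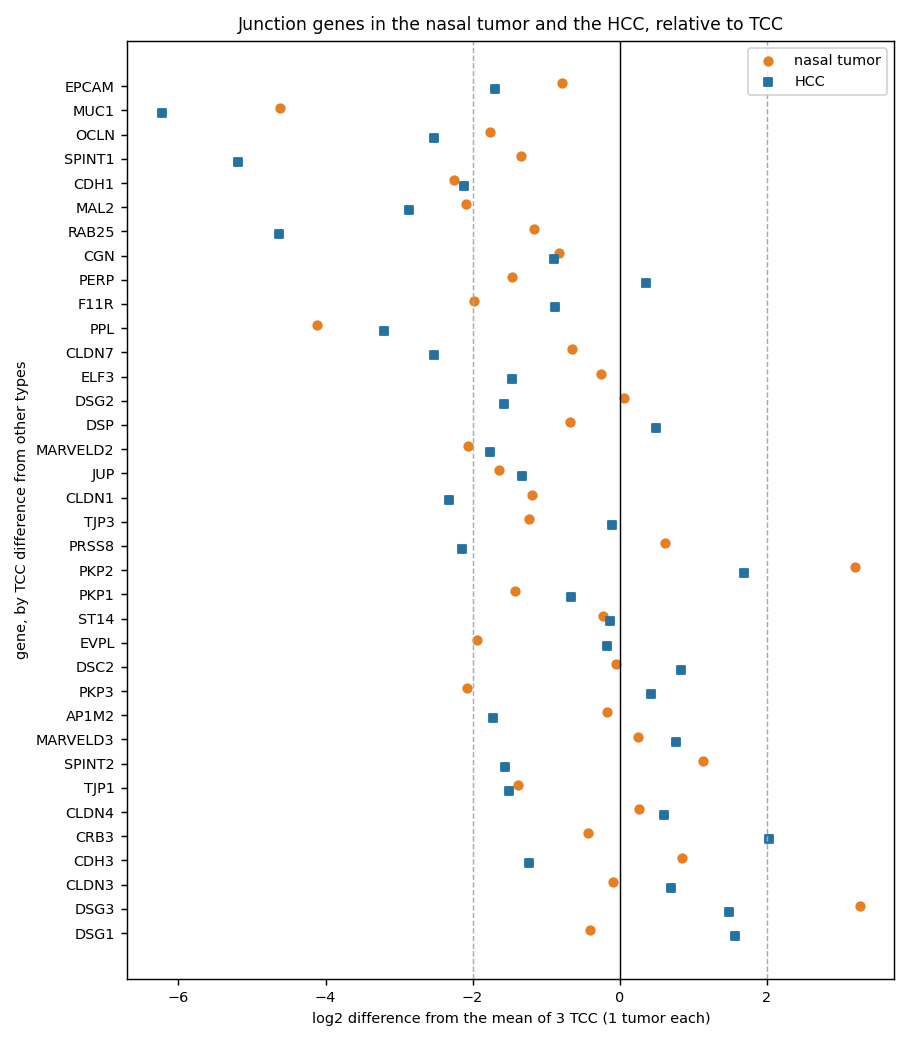
Difference in log2(signal + 16) from the mean of the 3 TCC for the nasal tumor (circles) and the HCC (squares), 1 tumor each, with genes ordered by their TCC difference from lymphoma, melanoma and sarcoma; dashed lines mark a difference of 2. MUC1, PPL, CDH1 and MAL2 lie left of -2 in both tumors, SPINT1 and RAB25 in the HCC only, and DSG3 and PKP2 lie right of 2 in the nasal tumor.

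The hemangiosarcoma, a tumor of endothelial origin, was at least 2 above the mean of the 3 types in 1 of the 36 genes, CDH1 at 2.52, where 2.73% of all genes were. Its mean of 10 endothelial genes was 9.25, against at most 7.95 in the other tumors. VWF and PECAM1 of that list were 11.74 and 13.44, the highest of the 23, whereas ROBO4, EMCN, ESAM and CLDN5 were higher in other tumors. In the hemangiosarcoma KRT8 was 4.15 and EPCAM 5.55. KRT18, at 9.19, was the highest of the 18 tumors that are not carcinomas, and the part of epithelial cells in the CDH1 value was not tested. In 6 genes it was at least 2 lower, where 1.29% of all genes were, among them PPL (-3.43), DSC2 (-3.26) and DSP (-3.02). The histiocytic sarcoma was at least 2 above the mean in 0 genes, where 2.12% of all genes were, and its highest differences were those of CLDN1 (1.47) and TJP3 (1.46). It was at least 2 lower in 2 genes, DSC2 (-3.34) and DSG2 (-2.08), where 0.887% of all genes were.

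Other genes of junctions and polarity were read from lists chosen by name. The counts are for TCC against the mean of lymphoma, melanoma and sarcoma, where 4.71% of all genes were higher and 2.62% lower. Of 10 genes of the adherens junction plaque and the nectins, 5 were higher in TCC and 0 lower: NECTIN4, by 2.39 (SE 0.41, adjusted p = 0.000582), NECTIN2, by 1.95 (SE 0.45, adjusted p = 0.00775), CTNND1 (p120 catenin), by 1.44 (SE 0.28, adjusted p = 0.00179), CTNNB1 (beta-catenin), by 1.43 (SE 0.26, adjusted p = 0.000957), and CTNNA1. Of 20 further tight junction genes 2 were higher and 0 lower, CXADR, by 4.08 (SE 0.59, adjusted p = 9.04e-05), and LSR, the angulin of tricellular contacts, by 1.99 (SE 0.54, adjusted p = 0.0256); the median of the 20 was 0.26. Of 8 other cadherins 0 were called in either direction; CDH2, N-cadherin, was at -2.10 (SE 0.87, adjusted p = 0.166). Of 18 genes of the polarity complexes 6 were higher and 0 lower, PARD6B, by 4.09 (SE 0.57, adjusted p = 6.44e-05), DLG3, by 3.27 (SE 0.85, adjusted p = 0.0185), PATJ, by 2.59 (SE 0.38, adjusted p = 0.000111), LLGL2, by 1.90 (SE 0.45, adjusted p = 0.0107), and PRKCI and MPP5, with a median of 0.39.

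Of 17 factors that regulate epithelial transcription and splicing, 14 were higher in TCC and 0 lower, with a median of 2.70. Over all genes, 4.71% were higher and 2.62% lower. GATA3, a factor of urothelium and of T cells, was higher by 5.16 (SE 1.08, adjusted p = 0.00384), EHF, an epithelial ETS factor, by 5.12 (SE 0.62, adjusted p = 1.05e-05), ESRP1 and ESRP2, epithelial splicing regulators, by 4.94 (SE 0.57, adjusted p = 5.87e-06) and 3.76 (SE 0.38, adjusted p = 9.07e-07), KLF5 by 4.91 (SE 0.64, adjusted p = 2.53e-05) and GRHL2, a grainyhead factor known to activate junction genes such as CDH1, by 3.62 (SE 0.39, adjusted p = 1.93e-06). GRHL2 was 9.44, 9.04 and 9.19 in TCC, 8.61 in the nasal tumor and 6.06 in the HCC, and 7.28 in melanoma 0 against 4.52 to 6.17 in the remaining 15 lymphomas, melanomas and sarcomas. EHF was 10.79, 10.57 and 11.80 in TCC, 10.65 in the nasal tumor, 9.62 in melanoma 0 and 4.43 in the HCC, so that the HCC lay in the range of the tumors that are not carcinomas.

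Of 7 repressors of CDH1 transcription, 1 was lower in TCC and 0 higher, where 2.62% of all genes were lower and 4.71% higher. ZEB2 was 9.18, 8.05 and 9.53 in TCC, 9.54 in the nasal tumor and 7.47 in the HCC, against 9.58 to 12.44 in the 16 others, a difference of -2.45 (SE 0.35, adjusted p = 8.12e-05). All 16 lay above the highest TCC. ZEB1 was 7.94, 8.34 and 8.49 in TCC and 7.88 to 11.14 in the 16 others, which overlap, at -1.27 (SE 0.40, adjusted p = 0.0541). SNAI1 at 0.21 (SE 0.58, adjusted p = 0.893), SNAI2 at -0.83 (SE 0.50, adjusted p = 0.388), TWIST1 at -1.27 (SE 0.58, adjusted p = 0.223) and TCF4 at -1.22 (SE 0.43, adjusted p = 0.0975) were not called.

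The markers of other cell types moved with TCC as follows, where 4.71% of all genes were higher and 2.62% lower. Of the simple epithelium keratins 4 of 5 were higher, of the urothelial genes 5 of 5, of the squamous genes 2 of 14 and of the airway genes 2 of 9, with 0 lower in each. Of the lymphocyte genes 3 of 11 were lower, of the melanocyte genes 5 of 9 and of the fibroblast and matrix genes 2 of 10, with 0 higher in each; the lists for hepatocytes (11 genes), macrophages (9) and skeletal muscle (8) had 0 calls in either direction, and 2 of 10 endothelial genes were higher. The part of each cell type in the junction gene values was not tested.

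Within types, the junction genes varied least in TCC. The median SD over the 36 genes was 0.36 in the 3 TCC, 0.64 in lymphomas, 0.77 in sarcomas and 1.0 in melanomas, while over all genes the medians were 0.40, 0.58, 0.61 and 0.58. The highest SD was that of DSC2 in TCC (2.02) and melanoma (3.20), of EPCAM in lymphoma (2.54) and of DSP in sarcoma (2.70). These medians are descriptions of 3 to 7 tumors and were not tested.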

How the data were processed

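RNA from 23 tumor biopsies kept in RNAlater was amplified with the NuGEN Ovation Pico WTA system and hybridized to 1 Affymetrix Canine Genome 2.0 array per tumor. The intensity values were computed by the authors with MAS5, which gives 1 linear signal per probeset and scales every array, and deposited as 1 table; the trimmed mean was 500.1 on each array, the median signal 82.1 to 132, and the share of the 42924 probesets with a signal under 16 was 19.8% to 27.2%. Log2 3'/5' ratios of the control probesets were 4.87 to 9.05 for beta-actin and 5.12 to 9.74 for GAPDH.

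The log2(signal + 16) of all probesets that carry the same single symbol in the platform annotation was averaged, which gave 15115 genes. No filter on low values was used, so that every measured junction gene was tested. The members and the gene lists were chosen with earlier results of these data known. The 19 tumors of the 4 types with at least 3 tumors entered 1 linear model (limma 3.58.1, R 4.3.3) with empirical Bayes moderation and a variance trend. Tests were two-sided and p-values were adjusted by Benjamini-Hochberg across all 15115 genes. Calls required both an adjusted p below 0.05 and a log2 difference of 1 or more. Tumor types with 1 tumor were described by log2 differences of 2 or more, without a test. The code was tested on simulated data. All measured members are named; of other lists, up to 4 called genes with the largest differences, and up to 6 of the epithelial regulators and the CDH1 repressors, with the few others said to be chosen later. Alternatives were another pseudocount, quantile normalization, a filter, 1 probeset per gene, other variance and call rules, a replicate block and leaving out each tumor.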

Additional observations from a re-analysis of the deposited data

Results flagged for a closer look

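In 108 groups of values (36 genes in the 7 lymphomas, 5 melanomas and 4 sarcomas), 10 held a tumor that lay far from the others by Dixon's test, which chance gives in about 1 of 20 groups. The 3 in lymphomas were CLDN3 in lymphoma 2, at 5.35 with the next tumor at 4.50, ELF3 in lymphoma 3, at 5.23 with the next at 4.58, and DSC2 in lymphoma 1, low at 4.46 with the next at 6.95. Of the 4 in melanomas, DSG1 in melanoma 0, at 11.41 with the next at 6.64, belongs to the desmosome genes that were high in that tumor. The others were CLDN3 in melanoma 4, at 6.44 with the next at 4.76, CRB3 in melanoma 3, at 6.09 with the next at 5.08, and CLDN7 in melanoma 4, low at 4.17 with the next at 5.87. The 3 in sarcomas were PRSS8 in sarcoma 0, at 6.10 with the next at 5.43, ELF3 in soft tissue sarcoma 1, at 6.17 with the next at 4.35, and TJP1 in soft tissue sarcoma 0, low at 10.09 with the next at 10.90. The cause of these values was not tested.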

How the results depend on the processing

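The 22 genes higher in TCC numbered 18 with a pseudocount of 1, 21 with 64, 24 after quantile normalization, 22 with the brightest probeset of each gene (where CDH3 was called lower, 23 calls in all), 20 after a filter that left 26 of the 36 genes, and 18 against the mean of the other 7 types; leaving out 1 tumor gave 17 (without TCC 2) to 23. The calls lost lay among AP1M2, CLDN1, EVPL, PKP1 and TJP3, apart from which every call was kept in these settings. Other counts of members that moved by over 1.5 times were those of genes at least 2 above the mean of the 3 types with a pseudocount of 1 (20 in the HCC, 4 in the hemangiosarcoma, 1 in the histiocytic sarcoma) or of 64 (10 in the nasal tumor), genes at least 2 below TCC in the nasal tumor with 64 (3), genes that differed between melanoma and sarcoma with the brightest probeset (1), genes higher in melanoma than in lymphoma with 64 or the replicate block (3), the gene lower there with the brightest probeset (0), and genes lower in sarcoma than in lymphoma after quantile normalization or without a variance trend (1). Over all genes, melanoma and sarcoma differed in 178 genes, in 105 with a pseudocount of 1 and in 63 with the block, and the 1108 genes called for TCC became 628, 638 and 668 without TCC 0, 1 and 2. The pseudocount itself sets the size of low differences. Leave-one-out counts were 3 to 7 between melanoma and lymphoma, 3 to 7 between sarcoma and lymphoma and 0 to 1 between melanoma and sarcoma; without melanoma 0 they were 3, 7 and 1. Without lymphoma 6 or melanoma 4, 3 genes were higher in melanoma than in lymphoma. CDH3 and CRB3 turned to -2.01 and -0.08 with the brightest probeset, and DSG3 ranged from -0.76 to 0.10, the latter without TCC 1. CDH3 was 0.05 without TCC 2, DSG1 was -0.33 without melanoma 0, and CLDN3 was -0.04 without melanoma 4. Tumors with the same number in their titles did not deviate together (mean r 0.00793 over 23 pairs, -0.00167 over the 108 others, and 6 of 19 tumors correlated best with their own number), so the numbers were not used as pairs; with a replicate block on them 22 genes were higher in TCC, 19 of them shared, and 4, 3 and 0 genes differed in the other comparisons. Updating gene symbols was not run, since no identifier of the platform matched the reference table given. TCC with 3 arrays and a high share of low signals limit what can be said of CLDN3, CLDN4, CRB3, DSG1 and DSG3.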

Other observations

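The lymphomas that stood high in EPCAM, lymphomas 4 and 6, also had the highest values of 3 of the 5 T cell genes on the lymphocyte list, CD3D (13.28 and 13.40), CD3G and CD2. Lymphoma 3, with 5.97 for EPCAM, came next in these 3 genes and exceeded lymphoma 6 in the other two, CD3E (12.60 against 12.44) and LCK. Of the 4 B cell genes CD79A and CD79B were lowest in lymphomas 4 and 6, while MS4A1 was 11.07 in lymphoma 4, above lymphomas 1 and 3, and PAX5 was lower in lymphoma 1 than in lymphoma 4. GATA3 was 7.02, 9.55, 6.91, 12.26, 11.72, 7.41 and 12.74 in lymphomas 0 to 6, against 12.02 to 12.75 in TCC, so that lymphomas 3, 4 and 6 stood apart from the other 4. OCLN did not follow the same split, since lymphoma 1, with 10.14, had 8.81 for CD3D, the lowest of the 7. These tumors were picked after their values were seen, and no test was made.

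Melanomas 0, 1 and 4 shared high values of S100A2, 14.01, 12.64 and 12.17, and of IVL, 14.67, 10.41 and 9.40, against 6.75 and 4.52 for S100A2 and 4.99 and 4.72 for IVL in melanomas 2 and 3. The same 3 tumors had the 3 highest values of DSC2, DSG1, DSG3, DSP and PERP among the melanomas. This also held for CDH1, TJP3, SPINT1, RAB25, MAL2 and ELF3. It did not hold for the other measured junction genes, among them the desmosome genes DSG2, JUP, PPL and the plakophilins. How often it held over all genes was not counted. Of the squamous list, KRT13, KRT16, KRT17 and SFN were also highest in these 3. KRT1, KRT10, TGM1, TGM3, TRIM29, KRTDAP, CSTA and DSC1 of that list did not follow this split. These genes and tumors were picked after their values were seen, and no test was made. TFAP2A, an epithelial and melanocytic factor, was 12.73, 10.78, 12.26, 13.15 and 9.92 in the melanomas and 8.10, 9.59 and 6.88 in TCC.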
